A study of Mus musculus with 18 samples.

Results

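Myostatin and 9 further genes of the TGF-beta superfamily pathway were followed across age in the hindlimb skeletal muscle of female C57BL/6J mice. The 10 genes were taken as a list of names, drawn up with earlier results of these data known: the ligands Mstn, Gdf11, Inhba, Tgfb1, Tgfb2 and Tgfb3, the antagonist Fst, the receptor Acvr2b, and the signal transducers Smad3 and Smad7. They are 10 of the 23420 genes in the RNA-seq table. All 10 reached the mean level of 10 normalized counts that was set for testing, which 13178 genes reached. Poly-A RNA was sequenced from 3 mice of each age (2, 20 and 28 months), 1 library per mouse. The labels name no transgene, deletion or drug treatment, so age is the only labelled difference, and strain, sex and tissue were the same in all 9. The 2-month animals, which the study calls young, stand as the shared reference for both older ages. The mixed hindlimb tissue holds fast and slow fibres together with connective tissue, vessels, nerve and blood cells. A protein domain that binds methylated CpG was used to enrich methylated fragments for sequencing (MBD-seq) from the same muscles and from T cells sorted magnetically from the spleen, the DNA of 3 mice being pooled at each age.

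Ligands of this superfamily are secreted as precursors with a prodomain, are cut by proprotein convertases, and bind pairs of type II and type I receptor kinases. Myostatin, GDF11, the activins and the TGF-beta isoforms then signal through phosphorylated SMAD2 and SMAD3 with SMAD4, while the bone morphogenetic proteins use SMAD1, SMAD5 and SMAD9. In skeletal muscle, myostatin is made by the fibres themselves and limits their growth, and animals that lack it are heavily muscled. Follistatin binds activins and myostatin and keeps them from the receptor, and SMAD7 is induced by the pathway and inhibits it.

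Each value below is a normalized count, the reads on a gene divided by 1 size factor per library. Reads on genes ranged from 20203833 to 71115244 per library. The labels do not say what the number of a library (1, 2 or 3) stands for. The 3 libraries numbered 3 stood apart at every age, with 8.81 to 10.4% of their gene reads on the 45S ribosomal RNA gene Rn45s against 24.0 to 30.4% in the others. The 2-month library 1 also stood apart: its summed count of 5 neutrophil and marrow genes was 2715 against 1.38 to 44.1 in the other 8 libraries, and that of 5 bone and cartilage genes was 1794 against 5.06 to 104. Fast fibre genes (Myh4, Myh1, Tnnt3, Tnni2 and Actn3) summed to between 3125352 and 4181650 counts and defined all 9 libraries as muscle, while 4 T cell genes summed to 1.76 to 20.7. Summed slow fibre markers (Myh7, Tnni1, Tnnt1, Tnnc1 and Myl3) ran from 6368 to 82964 at 2 months, 106322 to 186893 at 20 months and 138272 to 174183 at 28 months, and all 5 rose at both older ages. Within the 2-month group the highest slow fibre sum was that of library 2, which was also lowest for Mstn, Gdf11 and Fst. The 5 denervation markers all rose at 28 months, their sum going from between 1385 and 1591 at 2 months to between 3509 and 3881. The part of any of these in the changes below was not tested.

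Few of the 10 genes were called as changed with age. Smad3 was lower and Tgfb3 higher at 20 months than at 2 months, and Fst was 2.02-fold higher at 28 months than at 2 months. At 20 against 2 months 2 of the 10 genes passed an adjusted p of 0.05 (limma on log2(normalized count + 1), Benjamini-Hochberg over all tested genes), a share to be read against the 16.6% of all tested genes that passed. At 28 against 2 months 1 of 10 passed, against 13.8% of all tested genes. An unadjusted limma p under 0.05 was reached by 4 of 10 in each of these comparisons, beside 31.5% and 28.2% of all tested genes. At 28 against 20 months none of the 10 passed in limma, against 0.379% of all tested genes, while 3 had an unadjusted p under 0.05 (Fst, Smad3 and Mstn, beside 10.6% of all tested genes), and none passed in edgeR or DESeq2 either. With 10 genes, these shares of calls are near the background. The 3 libraries of the compared ages did not overlap for 5 of the 10 genes at 20 against 2 months, for 3 at 28 against 2 months and for 3 at 28 against 20 months. Over all tested genes the libraries did not overlap for 36.0%, 30.3% and 17.5%. By a rule of a fold change over 2 with an unadjusted p under 0.05, 0, 1 and 0 of the 10 genes passed in the 3 comparisons, against 5.17%, 5.14% and 1.31% of all tested genes, the 1 gene being Fst. The median log2 fold change of the 10 genes was -0.03, 0.03 and -0.10, beside -0.02, -0.01 and -0.00 for all tested genes. In absolute size the median was 0.23, 0.28 and 0.31, beside 0.23, 0.21 and 0.14. In bulk tissue, fewer cells of a type and less RNA per cell cannot be told apart, which touches each of these values.

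**Figure D1:**
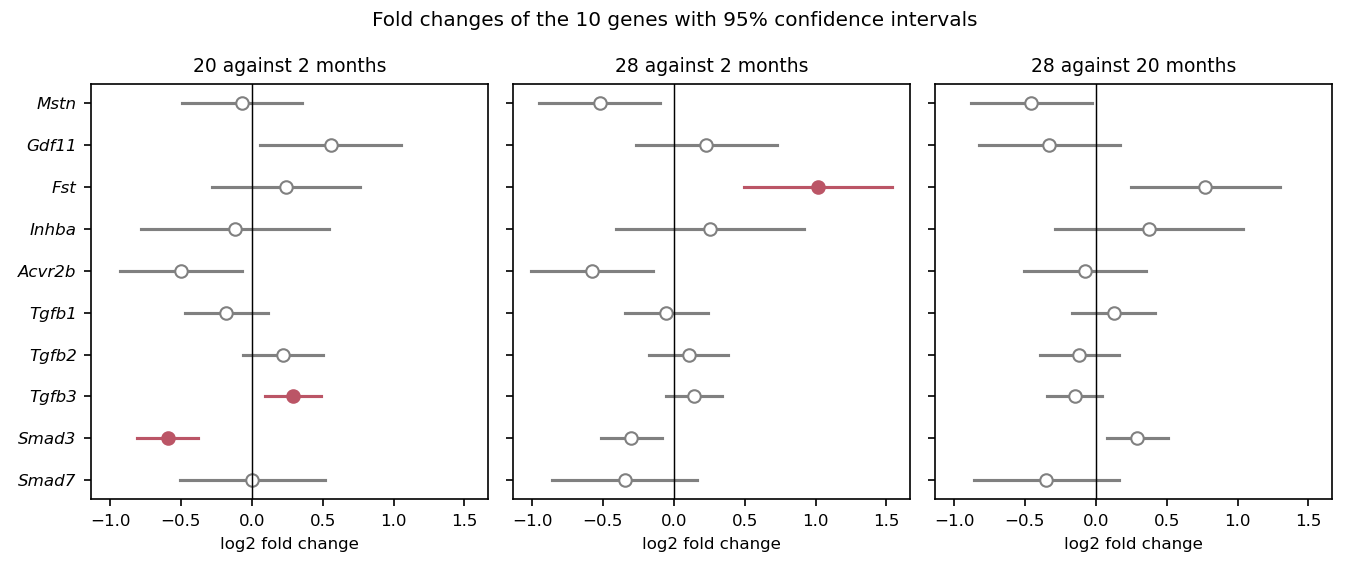
Log2 fold changes of the 10 genes (x axis) in the 3 comparisons of ages, from 3 libraries per age, with bars for the 95% confidence intervals of the limma fit and filled points for genes with an adjusted p under 0.05. Smad3 and Tgfb3 are filled at 20 against 2 months, Fst is filled at 28 against 2 months, and no gene is filled at 28 against 20 months.

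Divided by exon length, the 10 genes covered a wide range of levels in muscle. Mstn was the highest at 1357 ± 306 normalized counts per kb of exon (SD over all 9 libraries), followed by Tgfb3 at 818 ± 88.0 and Smad3 at 755 ± 153. Tgfb2 followed at 248 ± 33.7, Tgfb1 at 137 ± 13.3, Smad7 at 112 ± 28.6 and Fst at 101 ± 39.8. Gdf11 had 49.99 ± 12.2 per kb, Acvr2b 21.9 ± 5.22 and Inhba, the subunit of activin A, was the lowest at 7.48 ± 1.61. Over the 9 libraries the ranges of Smad3 and Tgfb2, of Tgfb2 and Tgfb1 and of Acvr2b and Inhba did not overlap. All other neighbours in this order overlapped in range. Ranges over all libraries do not use that both genes of a pair were measured in the same library. Compared within each library, Fst was above Gdf11 in all 9. Mstn was below Tgfb3 only in the 28-month library 2, and Gdf11 below Acvr2b only in the 2-month library 2. For Tgfb3 and Smad3, Tgfb1 and Smad7, and Smad7 and Fst the order differed between libraries, so it does not stand beyond their spread. The order also moved with age: at 2 months Smad3 was above Tgfb3 (917 ± 122 against 738 ± 65.8 per kb), at 20 months it was below it (605 ± 17.9 against 902 ± 41.3), and at 28 months the values were 743 ± 74.0 and 815 ± 69.3. Fst stood below Smad7 at 2 months (73.1 ± 22.8 against 122 ± 37.3 per kb) and above it at 28 months (145 ± 33.5 against 94.2 ± 19.8). The read numbers behind these values were lowest for Inhba, at 16 to 80 reads per library, and highest for Mstn, at 1414 to 7379.

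**Figure D2:**
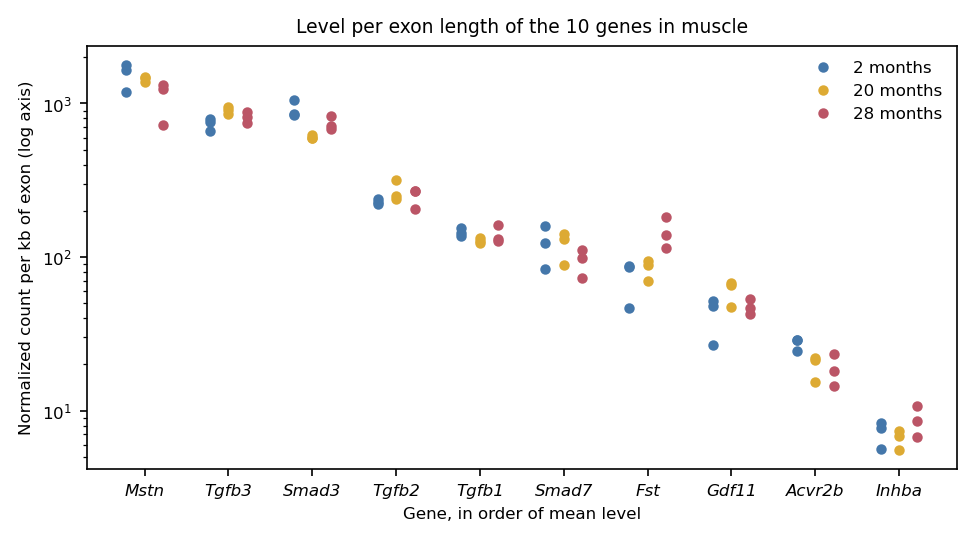
Normalized count per kb of exon on a log axis for the 10 genes, ordered by their mean over 9 libraries, with 1 point per library coloured by age. Mstn is at the top with values from 722 to 1788 and Inhba at the bottom with values from 5.56 to 10.7.

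Mstn encodes myostatin, the fibre-derived ligand that limits muscle mass. It lies on the plus strand at chr1:53061640-53068079 (GRCm38) and has 3 exons. Its normalized counts were 4453, 3195 and 4835 at 2 months, 3744, 3953 and 4020 at 20 months and 3547, 1953 and 3341 at 28 months, for the libraries numbered 1, 2 and 3. The 20-month libraries lay inside the 2-month range, and the 28-month libraries were all below the 20-month ones, with library 2 the lowest of all 9. At 20 against 2 months the log2 fold change was -0.07 (95% confidence interval -0.50 to 0.36, adjusted p = 0.841, limma). Between 28 and 2 months it was -0.52 (-0.95 to -0.10), a mean of 2947 ± 867 against 4161 ± 858 (SD, n = 3 each), and this missed the threshold with an adjusted p of 0.0990 in limma. The difference was -0.52 between the libraries numbered 1 and 2 and -0.53 between those numbered 3. Without the 2-month library 2, whose Mstn count was the lowest of its age, the value was -0.70 and passed with a limma adjusted p of 0.0280. Without the 2-month library 1 it was -0.46 (limma adjusted p = 0.244), and without the 28-month library 2, the lowest of all, it was -0.25 (limma adjusted p = 0.287). At 28 against 20 months the log2 fold change was -0.45 (-0.88 to -0.03, limma adjusted p = 0.443), and -0.18 without the 28-month library 2. The spread between mice was uneven for Mstn, the coefficient of variation being 20.6% in the 2-month, 3.70% in the 20-month and 29.4% in the 28-month libraries.

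Gdf11 encodes the closest relative of myostatin and is made from a gene of 3 exons on the minus strand at chr10:128880524-128891718. Counts were 301, 157 and 278 at 2 months, 383, 395 and 277 at 20 months and 313, 249 and 272 at 28 months. The 2-month library 2 was the lowest and the 20-month libraries 1 and 2 were the highest, while the 20-month library 3 lay inside the 2-month range, so the ages overlapped in every comparison. The log2 fold change was 0.56 at 20 against 2 months (0.06 to 1.05, adjusted p = 0.117, limma; 0.26 without the 2-month library 2) and 0.23 at 28 against 2 months (-0.27 to 0.73, adjusted p = 0.559, limma). Between the libraries numbered 1 and 2 alone the difference at 20 against 2 months was 0.84 on the log2 scale, and between those numbered 3 it was -0.00. The difference between Mstn and Gdf11 within a library does not depend on how libraries are scaled. It was 3.88, 4.34 and 4.12 on the log2 scale at 2 months, 3.29, 3.32 and 3.85 at 20 months and 3.50, 2.97 and 3.61 at 28 months. Every library of the older ages was below every 2-month library, a mean difference of -0.63 at 20 months and -0.75 at 28 months. The two-sided exact permutation p was 0.1 in both, which is the smallest that 3 against 3 libraries can give.

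The promoters of this pair differ in their content of CpG, the dinucleotide that is methylated and that the MBD protein binds. The 250 bases before each start are shown from RefSeq (GRCm38.p6), 5′ to 3′ on the strand of the gene, with CpG in capitals, to show this difference. Mstn spans chr1:53061390-53061639 on the plus strand and holds 3 CpG, and Gdf11 spans chr10:128891719-128891968 on the minus strand and holds 33. The median of the 32851 mouse promoters in the same table is 6 CpG, and 29.0% of them hold fewer than Mstn and 96.0% fewer than Gdf11.
Mstn: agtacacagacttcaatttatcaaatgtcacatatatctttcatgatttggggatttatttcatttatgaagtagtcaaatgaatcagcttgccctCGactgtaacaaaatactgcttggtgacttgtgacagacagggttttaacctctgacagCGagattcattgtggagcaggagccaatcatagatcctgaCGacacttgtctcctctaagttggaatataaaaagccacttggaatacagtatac
Gdf11: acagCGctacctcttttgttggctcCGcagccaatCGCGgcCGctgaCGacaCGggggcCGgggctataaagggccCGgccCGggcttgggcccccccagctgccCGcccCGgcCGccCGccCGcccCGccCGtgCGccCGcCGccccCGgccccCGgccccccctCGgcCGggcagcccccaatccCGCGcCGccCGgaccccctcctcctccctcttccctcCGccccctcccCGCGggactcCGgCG

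MBD-seq signal was averaged over the 500-bp bins listed in the table that overlap the 1 kb on either side of each start, 5 bins for most of the member genes. The labels list a repeat capture of muscle at each age, but the table has 1 muscle column per age that names no capture, so its origin is not known. With 1 column per age and tissue there was no replicate and no test. At the Mstn start the signal in muscle was 18.2, 13.3 and 13.8 normalized counts per bin at 2, 20 and 28 months, and in T cells it was 52.4, 63.5 and 67.7. Among 21489 genes with bins, Mstn stood at percentiles 73.8, 64.4 and 64.6 in muscle and at 95.1, 95.3 and 94.0 in T cells. In the bin centred 0.11 kb downstream, muscle had 24.6, 16.0 and 15.9 counts and T cells had 67.0, 79.1 and 104. For Gdf11 the table lists 4 bins and none over the start itself or the sequence printed above, so the signal there was not analysed here. The mean of these 4 flanking bins was 2.96, 5.26 and 3.98 in muscle and 2.28, 4.26 and 2.97 in T cells, against medians over all genes of 8.73, 8.76 and 11.0 in muscle and 10.2, 12.2 and 13.2 in T cells. In muscle most of the Gdf11 mean came from the bin centred at -1.032 kb from the start (upstream negative), with 10.01, 20.2 and 12.1 counts, the other 3 bins having 0 to 2.55.

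**Figure D3:**
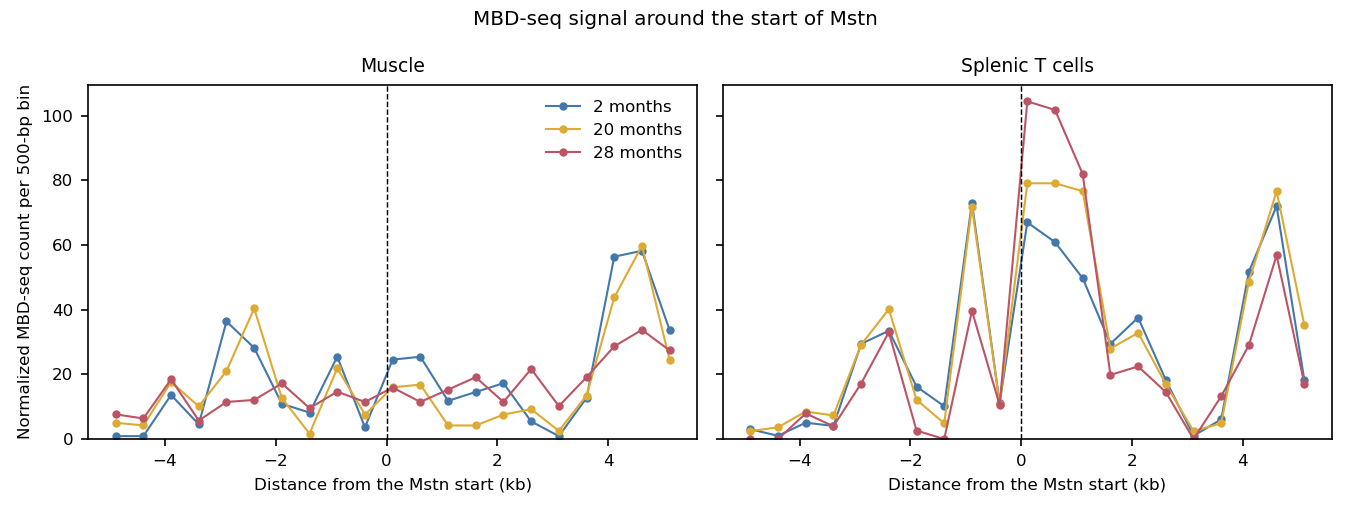
Normalized MBD-seq count per 500-bp bin (y axis) by distance of the bin centre from the Mstn start, downstream positive (x axis), in muscle and in splenic T cells at 3 ages, with 1 pooled column per line. From 0 to 1.2 kb downstream the T cell columns reach between 49.7 and 104 while the muscle columns stay at or below 25.5.

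Inhba encodes the beta A subunit of activin A, which shares the type II receptors with myostatin, and lies on the plus strand at chr13:16011851-16031609. Its counts were 35.7, 49.3 and 52.7 at 2 months, 46.7, 35.4 and 43.6 at 20 months and 68.3, 42.8 and 54.7 at 28 months. All ages overlapped. The log2 fold changes were -0.12 at 20 months (-0.78 to 0.55, limma adjusted p = 0.826) and 0.26 at 28 months (-0.41 to 0.92, limma adjusted p = 0.633) against 2 months. Both intervals were wide, and the values rest on 16 to 80 reads per library.

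The 3 TGF-beta isoforms act through TGFBR2 and TGFBR1, and in muscle they are linked to matrix deposition. Tgfb1 (plus strand, chr7:25687002-25705077) had 334, 310 and 298 counts at 2 months, 290, 267 and 275 at 20 months and 285, 352 and 276 at 28 months. All 20-month libraries were below all 2-month libraries, but the log2 fold change of -0.18 did not pass (-0.47 to 0.11, limma adjusted p = 0.394). The 28-month library 2 was the highest of all 9, and at 28 against 2 months the change was -0.05 (-0.35 to 0.24, limma adjusted p = 0.834). Tgfb2 (minus strand, chr1:186622792-186705989) had 1148, 1234 and 1188 counts at 2 months, 1240, 1655 and 1296 at 20 months and 1397, 1063 and 1406 at 28 months. The 20-month libraries were all above the 2-month ones, by as little as 1240 against 1234, and the log2 fold change of 0.22 did not pass (-0.06 to 0.50, limma adjusted p = 0.267) and was 0.093 without the 20-month library 2. Against 2 months the 28-month change was 0.10 (-0.18 to 0.38, limma adjusted p = 0.646).

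Tgfb3 (minus strand, chr12:86056743-86079041), the most abundant isoform per kb of exon in this tissue, had 2695, 2546 and 2257 counts at 2 months, 3191, 3059 and 2912 at 20 months and 2989, 2765 and 2520 at 28 months. The 20-month libraries were all above the 2-month ones, and at every age library 1 was the highest and library 3 the lowest. At 20 against 2 months the mean was 3054 ± 140 against 2499 ± 223 (SD, n = 3 each), a log2 fold change of 0.29 (standard error 0.09, limma adjusted p = 0.0442), or 1.22-fold. This call stood at the edge of the threshold and was lost in 11 of 22 other settings, where the limma adjusted p reached 0.491 when every library was rescaled to the same sum and 0.138 without the 2-month library 3. Leaving out the 2-month library 2, any 1 of the 20-month libraries or the 28-month library 2 also ended the call, at limma adjusted p from 0.0527 to 0.160. Without the 2-month library 1 it held at 0.35 (limma adjusted p = 0.0446). The log2 difference was 0.25 between the libraries numbered 1 and 2 and 0.37 between those numbered 3. At 28 months the ages overlapped and the log2 fold change against 2 months was 0.14 (-0.05 to 0.34, limma adjusted p = 0.335).

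Fst encodes follistatin, the secreted antagonist of activins and myostatin, and lies on the minus strand at chr13:114452262-114458951. Its counts were 245, 134 and 248 at 2 months, 252, 270 and 199 at 20 months and 397, 330 and 519 at 28 months. The 28-month libraries were the 3 highest of all 9, and the 2-month and 20-month libraries overlapped. At 28 against 2 months the mean was 415 ± 95.8 against 209 ± 65.2 (SD, n = 3 each), a log2 fold change of 1.02 (standard error 0.24, 95% confidence interval 0.49 to 1.54, limma adjusted p = 0.0152). This was larger in size than the changes of 93.2% of all tested genes. The log2 difference was 0.69 between the libraries numbered 1, 1.30 between those numbered 2 and 1.06 between those numbered 3. Without the 28-month library 3, the highest, the value was 0.84 and the call was lost (limma adjusted p = 0.0707), and without all libraries numbered 3 it was lost at 0.99 (limma adjusted p = 0.0652). Without the 2-month library 1 it was 1.16 (limma adjusted p = 0.0222), and without the 2-month library 2, the lowest of its age, it was 0.72 (limma adjusted p = 0.0309). At 20 against 2 months the log2 fold change was 0.24 (-0.28 to 0.77, limma adjusted p = 0.531). At 28 against 20 months it was 0.77 (0.25 to 1.30), which did not pass (unadjusted p = 0.00714, limma adjusted p = 0.256).

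The balance of ligand and antagonist transcripts was read as the log2 difference between Mstn and Fst within a library. It was 4.18, 4.57 and 4.28 at 2 months, 3.89, 3.87 and 4.33 at 20 months and 3.16, 2.56 and 2.68 at 28 months. All 28-month libraries were below all libraries of both younger ages. The mean was 4.34 ± 0.20 at 2 months and 2.80 ± 0.31 at 28 months (SD, n = 3 each), a ratio of Mstn to Fst counts that was 2.91-fold lower. At 20 months the mean was 4.03 ± 0.26, a difference of -0.31 from 2 months. The two-sided exact permutation p was 0.1 at 28 against 2 months and at 28 against 20 months, the smallest this design allows, and 0.3 at 20 against 2 months.

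Acvr2b encodes the activin receptor type IIB, the main type II receptor for myostatin, and lies on the plus strand at chr9:119402178-119442148. Counts were 308, 308 and 261 at 2 months, 228, 235 and 163 at 20 months and 194, 249 and 155 at 28 months. Every library of both older ages was below every 2-month library, and library 3 was the lowest at each of the 3 ages. The log2 fold changes of -0.50 at 20 months (-0.93 to -0.07, limma adjusted p = 0.105) and -0.57 at 28 months (-1.01 to -0.14, limma adjusted p = 0.0750) did not pass. With a term for the libraries numbered 3 the same differences passed, at limma adjusted p of 0.0325 and 0.0198. Without the 28-month library 2 the change at 28 months was -0.75 and passed (limma adjusted p = 0.0373). The 2 older ages differed by -0.08 on the log2 scale (-0.51 to 0.35).

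Smad3 encodes the receptor-regulated SMAD of the myostatin, activin and TGF-beta branch, and lies on the minus strand at chr9:63646767-63757994. Its normalized counts were 4259, 5382 and 4362 at 2 months, 3015, 3182 and 3036 at 20 months and 4205, 3656 and 3484 at 28 months. The 20-month libraries were the lowest 3 of all 9, the 28-month libraries came next and the 2-month libraries were the highest, without overlap between any 2 ages. At 20 against 2 months the mean was 3078 ± 91.1 against 4668 ± 620 (SD, n = 3 each), a log2 fold change of -0.59 (standard error 0.10, limma adjusted p = 0.00197), or 1.51-fold lower. The change was -0.63 between the libraries numbered 1 and 2 and -0.52 between those numbered 3, and leaving out any 1 library kept the call. It was lost when every library was rescaled to the same sum of gene counts, Rn45s included (-0.58, limma adjusted p = 0.0841). At 28 against 2 months the log2 fold change was -0.30 (-0.52 to -0.08) with a limma adjusted p of 0.0650, and it passed in DESeq2 on the recovered reads (adjusted p = 0.0451), in limma after quantile normalization (adjusted p = 0.0409) and in limma with a term for the libraries numbered 3 (adjusted p = 0.0373). Without the 2-month library 2 it was -0.19 (limma adjusted p = 0.201). At 28 against 20 months it was 0.29 (0.08 to 0.51, limma adjusted p = 0.308).

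Smad7 encodes the inhibitory SMAD that recruits ubiquitin ligases to the receptors, and lies on the plus strand at chr18:75367365-75395934. Counts were 551, 703 and 372 at 2 months, 581, 628 and 397 at 20 months and 436, 496 and 323 at 28 months. At every age library 2 was the highest and library 3 the lowest, and the ages overlapped in each comparison. The log2 fold change was 0.00 at 20 against 2 months (-0.51 to 0.51, limma adjusted p = 0.997) and -0.35 at 28 against 2 months (-0.86 to 0.16, limma adjusted p = 0.369). At 28 months the log2 difference from 2 months was -0.42 between the libraries numbered 1 and 2 and -0.20 between those numbered 3. It was -0.14 without the 2-month library 2, -0.59 without the 2-month library 3 and -0.17 without the 28-month library 3, none of which passed. Within a library, Smad7 minus Smad3 was -2.95, -2.93 and -3.55 on the log2 scale at 2 months, -2.37, -2.34 and -2.93 at 20 months and -3.27, -2.88 and -3.43 at 28 months. The mean difference between 20 and 2 months was 0.60, with a two-sided exact permutation p of 0.1, and between 28 and 2 months it was -0.05, with an exact p of 1.

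**Figure D4:**
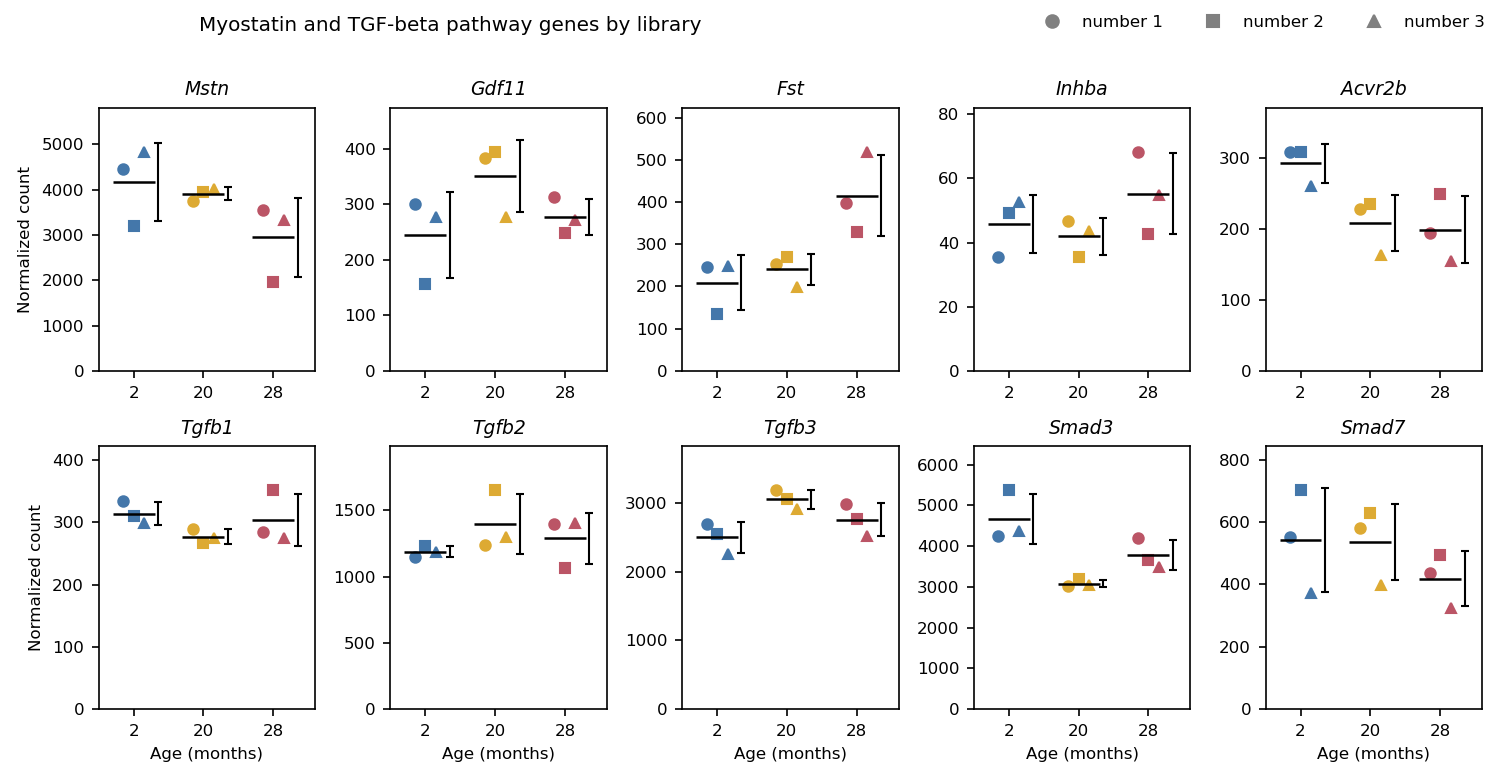
Normalized count of each of the 10 genes (y axes from 0) by age in months, with 1 point per library shaped by its number, horizontal lines for the mean and bars for the SD of 3 libraries. The 28-month libraries of Fst lie from 330 to 519 above all others, those of Smad3 at 20 months lie from 3015 to 3182 below all others, and those of Mstn at 28 months reach down to 1953.

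The genes whose levels ran most like that of Mstn over the 9 libraries were taken by Pearson r on the log2 scale among 13168 tested genes, the 10 members left out. These were Ppp4r2, a regulatory subunit of protein phosphatase 4 (r = 0.970, Spearman rho = 0.950), Ghr, the growth hormone receptor (r = 0.960, rho = 0.900), Armc8, an armadillo repeat protein (r = 0.958, rho = 0.933), Gdap1, a mitochondrial outer membrane protein (r = 0.958, rho = 0.917), and Psme4, a proteasome activator (r = 0.937, rho = 0.833). They are the highest of many, 23 genes having an r above 0.9, and the points share their libraries and their scaling. Without the 2 libraries farthest from the median of Mstn, r was 0.920 for Ppp4r2, 0.759 for Ghr, 0.914 for Armc8, 0.815 for Gdap1 and 0.796 for Psme4. After each age was centred on its own mean, r was between 0.929 and 0.952 in these 5 genes, which were chosen for their r over the same libraries. Ghr counts ran from 5499 to 8031.

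Beyond the 10 genes, 87 genes of the pathway in 7 lists by role were measured, of which 78 passed the filter on low values. The 9 below it had mean counts from 0.196 to 9.13 and included the ligands Inhbc, Inhbe, Nodal, Gdf6, Gdf15 and Amh. At 20 against 2 months 24 of the 78 changed, 13 higher and 11 lower, beside 9.42% higher and 7.13% lower of all tested genes. At 28 against 2 months 18 changed, 8 higher and 10 lower, beside 7.53% and 6.24%. The median log2 fold changes of the 78 were -0.03 and -0.04. Of all calls 56.9% and 54.7% were higher, and 51.0% and 66.8% were when each library was rescaled to the same sum without Rn45s. Both comparisons use the same 2-month libraries. At 28 against 20 months 2 were lower, among them the type I activin receptor Acvr1b (-0.52), and none were higher, beside 0.167% and 0.212% of all tested genes. Without the 2-month library 1 the counts were 20 and 13, and without the libraries numbered 3 they were 14 and 10.

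Among the other ligands, 1 of 9 tested changed at 20 months and 2 of 9 at 28 months, beside 16.6% and 13.8% of all tested genes. Gdf5, a ligand of the bone morphogenetic protein branch that is known to rise in denervated muscle, had 0, 0 and 5.78 counts at 2 months, 14.9, 38.8 and 13.6 at 20 months and 55.0, 116 and 132 at 28 months. It rose at both older ages without overlap, from 0, 0 and 8 reads in the 2-month libraries, so a fold change has no firm base. Bmp5 fell by 1.19 on the log2 scale at 28 months, from 354 ± 156 to 146 ± 28.8. In the list for latency and activation, 5 of 14 changed at 20 months and 4 of 14 at 28 months, beside the same shares of all tested genes. The integrin subunit Itgb8, which with Itgav activates latent TGF-beta, rose from 10.1 ± 3.75 counts to 27.5 ± 6.30 at 20 months and 67.4 ± 21.5 at 28 months, a log2 change of 1.40 and 2.64. The 2-month Itgb8 counts rest on 3, 8 and 13 reads. Itgav itself rose by 0.41 and 0.47. The convertase Pcsk5 fell by 1.22 and 1.47, and Bmp1, a protease that frees myostatin from its prodomain, fell by 0.92 and 0.68. The activator thrombospondin 1 (Thbs1) rose by 1.26 at 20 months.

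Of the other extracellular antagonists 3 of 8 changed at 20 months and 2 of 8 at 28 months, beside 16.6% and 13.8% of all tested genes. Fstl1, a follistatin-like glycoprotein, fell by 0.76 and 0.51. Fstl3, the follistatin homologue that binds myostatin and activin, rose by 1.29 at 20 months, from 13.7 ± 2.39 to 35.01 ± 7.40 counts. The 2-month Fstl3 counts rest on 5, 8 and 22 reads. Of the 12 other receptors 3 changed at each older age, beside the same shares of all tested genes. The type I receptors Tgfbr1 (0.42 and 0.40) and Bmpr1b (0.95 and 0.83) rose at both, Bmpr2 rose at 20 months (0.81), and Acvr1b fell at 28 months (-0.69). Acvr1b, a type I partner of the myostatin receptor, had 2418, 2137 and 2167 counts at 2 months, 1876, 2094 and 2010 at 20 months and 1385, 1363 and 1408 at 28 months. Its 28-month libraries lay close together and below all others. None of the 6 other Smads tested passed in limma, edgeR or DESeq2 at either older age, and at an unadjusted p under 0.05 there were 1 at 20 months and 0 at 28 months, beside 31.5% and 28.2% of all tested genes. The largest change among them was that of Smad9, a SMAD of the bone morphogenetic protein branch, at 1.03 on the log2 scale (17.1 ± 3.45 to 35.8 ± 5.55 counts, limma adjusted p = 0.139). Of 14 intracellular regulators, the SMAD4 ubiquitin ligase Trim33 rose at both older ages (0.59 and 0.34), and the corepressor Tgif2 fell at 20 months (-2.45) from 29.4 ± 11.0 to 4.85 ± 2.89 counts. These Tgif2 counts rest on 18, 17 and 25 reads at 2 months and on 1, 3 and 14 reads at 20 months. At 28 months the Tgif2 change of -2.07 did not pass (limma adjusted p = 0.0691).

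The 15 target genes had the largest share of calls, 10 at 20 months and 6 at 28 months, and they did not move one way. Of all tested genes 16.6% and 13.8% were called. At 20 months 4 rose, among them Nox4 (0.88), Ctgf (0.82) and Junb (0.63), and 6 fell, among them Col1a1 (-3.50), Col3a1 (-2.65), Postn (-1.47) and Timp1 (-1.21). At 28 months Junb (0.92) and Nox4 (0.92) rose, and Col1a1 (-3.34), Col3a1 (-2.17), Postn (-0.85) and Tgfbi (-0.58) fell. Col1a1, the fibrillar collagen chain, had 34207, 11798 and 29946 counts at 2 months, 2258, 1711 and 2170 at 20 months and 1979, 2190 and 2657 at 28 months. The fibroblast markers Dpt and Col6a3 fell at both older ages and Pi16 at 20 months, 3 of 5 and 2 of 5 markers, and the summed level of the 5 went from between 8677 and 11162 at 2 months to between 5460 and 5586 at 20 months and between 5879 and 7312 at 28 months. The 4 tendon markers (Scx, Tnmd, Mkx and Fmod) summed to 18966, 6027 and 19961 counts at 2 months, from 8131 to 9848 at 20 months and from 5473 to 7344 at 28 months, and among the 2-month libraries this sum, like Col1a1, was lowest in library 2. Tnmd was the 1 tendon marker that passed, with log2 fold changes of -1.41 and -1.99. The 5 bone and cartilage genes summed to 1794, 75.8 and 104 counts at 2 months and to 5.06 to 28.0 in the 6 older libraries, and Col2a1 passed, with log2 fold changes of -5.01 and -4.07. The part of any of these lists in the collagen values was not tested.

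**Figure D5:**
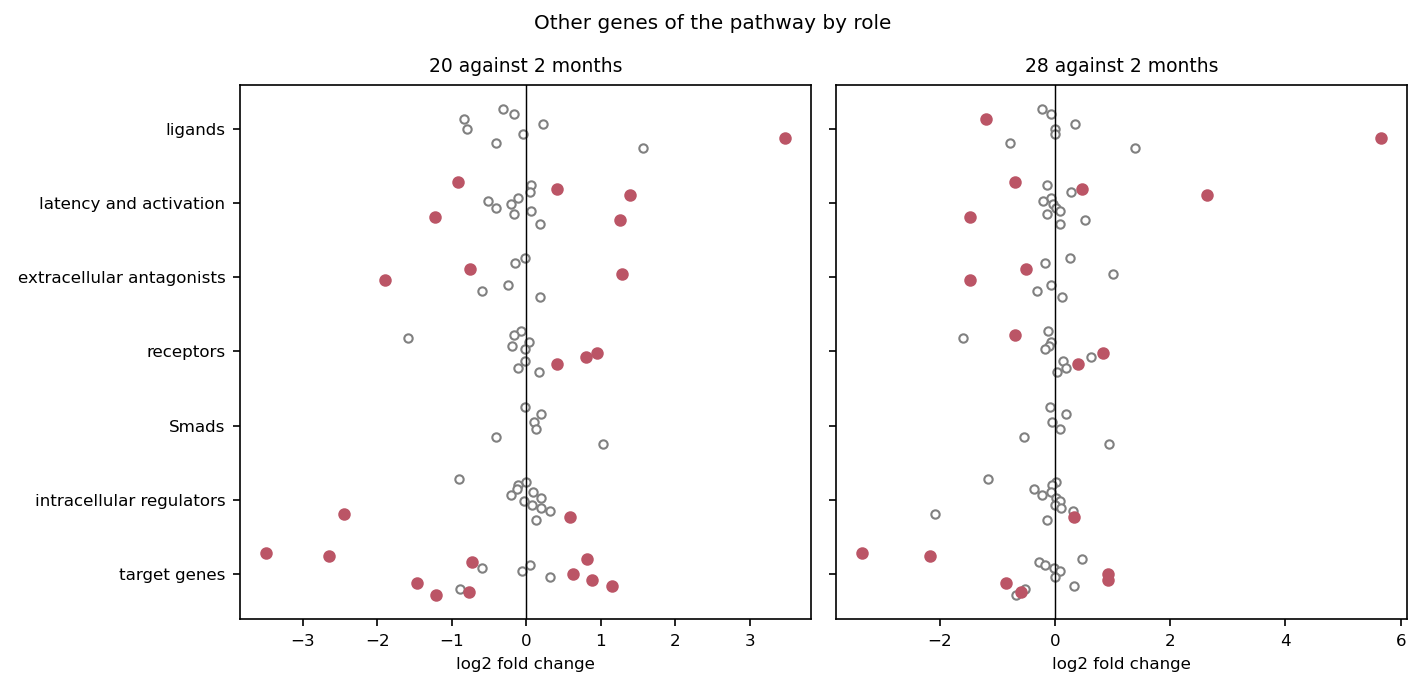
Log2 fold changes (x axis) of 78 other pathway genes in 7 lists by role (y axis) at 20 and at 28 months against the same 2-month libraries, filled points marking an adjusted p under 0.05. Calls lie on both sides of 0, Gdf5 is the point farthest right at 5.66 at 28 months, and Col1a1 is the point farthest left in both panels.

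Around the starts of the other 8 member genes the MBD-seq signal had no common course with age. The means of Fst, Tgfb2 and Smad3 were low in muscle at every age, from 0 to 2.69 normalized counts per bin. For Smad7 the table lists 3 bins and none over the start, and their mean was 0.606, 0.281 and 0.637 in muscle. Tgfb1 had the highest mean of the 10 genes in muscle, 33.4, 23.8 and 19.8 at 2, 20 and 28 months, while in T cells it was 34.0, 48.4 and 55.5. The upper quartile over all genes also moved, with 18.9, 17.8 and 16.6 in muscle and 22.1, 26.8 and 30.7 in T cells. Among all genes with bins, Tgfb1 stood at percentiles 89.6, 84.1 and 83.6 in muscle and 86.6, 90.6 and 90.4 in T cells. The Tgfb1 mean was taken over 4 bins, with none listed over the first bases of the gene. This mean rested on 1 bin centred at -0.752 kb, with 127, 93.5 and 63.1 counts in muscle and 134, 192 and 213 in T cells, while the bin centred at -0.252 kb had 6.37, 1.68 and 11.5 in muscle. Tgfb3 had 4.73, 4.55 and 4.21 in muscle and 21.9, 24.1 and 33.8 in T cells. Acvr2b had 5.46, 8.92 and 4.97 in muscle, mostly from the bin centred at -0.928 kb (24.6, 42.1 and 16.6), and Inhba, with 3 upstream CpG, had 8.19, 12.0 and 12.5. Of the members called in RNA, Smad3 and Fst had mean signals at or below 2.69 around the start at every age in muscle. Tgfb3, called at 20 months, had the higher means of 4.73, 4.55 and 4.21 given above. Over the gene body the muscle signal was lowest at 28 months for 8 of the 10 genes, all but Mstn and Smad3, and for 58.6% of the 21489 genes.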

How the data were processed

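RNA was measured in 9 muscle libraries and methylated DNA in 3 muscle and 3 T cell columns, grouped by the labels. For RNA-seq the authors trimmed the reads, aligned them to mm10 with Hisat2 (the submitters' processing notes name TopHat), counted them per RefSeq gene with HTSeq, and deposited signal values that are counts divided by 1 DESeq2 size factor per library. Dividing by what 1 read was worth gave whole reads for 100% of the values (tolerance 0.001). The 5 rows that name no gene, 37.9 to 47.7% of the counted reads, were left out. Strand use in counting is not given in the sources used here; no other curated RefSeq gene shares exon bases with a member. For MBD-seq the authors aligned with Bowtie2 and deposited normalized coverage signal per 500-bp bin. Precision is limited by 20203833 to 71115244 reads on genes per library and by 3 mice per age.

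Log2(normalized count + 1) of the 13178 genes with a mean of at least 10 was fitted over all 9 libraries with age as the only term in limma-trend (limma 3.58.1, R 4.3.3), with Benjamini-Hochberg adjustment and calls under 0.05. Tested on simulated data of the same 13178 genes for 20 against 2 months, this recovered 68.5% of 200 genes changed by 1 on the log2 scale. DESeq2 1.42.0 and edgeR 4.0.16 were run on the recovered reads as alternatives. Starts, exon lengths and promoters came from RefSeq GRCm38.p6, whose chromosome lengths fit the bins, and 7 of the 10 members had a promoter entry. The members and gene lists were chosen with earlier results of these data known. Named were all members, up to 4 called genes of each list with the largest change in each comparison, and the 5 genes most like Mstn. Itgav at 20 months and the remaining target genes and Smad9 were named after their values were seen. Some pathway genes that the rule would name are not reported here.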

Additional observations from a re-analysis of the deposited data

How the results depend on the processing

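In 613 of 657 repeats of a member's fold change under another setting, the direction and the side of the threshold held. The cause of the other changes was not tested unless the setting left out libraries. With every library rescaled to the same sum, calls at 20 against 2 months numbered 0 members, 13 other pathway genes and 586 of all genes, at 28 against 2 months 10 pathway genes and 554 genes, and at 28 against 20 months 0 pathway genes and 24 genes. Quantile normalization gave 1 member (Smad3) at 20 months, 2 (Fst and Smad3) at 28 months and an Inhba change of 0.069 at 20 months. With no filter on low values 1 member (Smad3) was called at 20 months. Rescaling without Rn45s, chosen after seeing the data, called 1 member at 20 months and 0 pathway genes at 28 against 20 months, and gave -0.031 for Smad7 at 20 months and 0.0045 for Acvr2b at 28 against 20 months. It moved the median of all tested genes by at most 0.08. DESeq2 called 2 members (Fst and Smad3) at 28 months and 228 genes at 28 against 20 months, and for Smad7 at 20 months DESeq2 and edgeR both gave -0.015. Under the rule on fold size (over 2, unadjusted p under 0.05), 0 members, 14 pathway genes and 681 genes passed at 20 months, 11 pathway genes and 677 genes at 28 months, and 172 genes between 20 and 28 months.

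Same-numbered libraries of different ages correlated in their deviations between -0.04 and 0.16. The 3 pairs of libraries numbered 3 lay from 0.11 to 0.16 and those numbered 1 and 2 from -0.04 to 0.10, so the numbers as a whole were not taken as pairs. With the number as a replicate block 3 members were called at 20 months (Acvr2b, Smad3 and Tgfb3), 5 at 28 months (Acvr2b, Fst, Mstn, Smad3 and Smad7) and 138 genes at 28 against 20 months. A term for the libraries numbered 3 gave 3 members at 28 months (Acvr2b, Fst and Smad3) and 103 genes at 28 against 20 months. Fitting only the 2 ages compared gave 76 genes there. Without the libraries numbered 3, which leaves 2 mice per age, 1 member (Smad3), 14 pathway genes and 1099 genes were called at 20 months, 0 members, 10 pathway genes and 712 genes at 28 months, and 0 pathway genes and 11 genes between them. Mstn at 20 months was then 0.028 and Smad7 -0.043.

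When each library was left out in turn, members called ran from 1 to 2 at 20 months and from 0 to 2 at 28 months, pathway genes from 14 to 24, from 11 to 16 and from 0 to 3 in the 3 comparisons, and all genes from 1081 to 2231, from 963 to 1846 and from 14 to 88. Changes that crossed 0 at 20 against 2 months ran from -0.25 to 0.050 for Mstn, from -0.050 to 0.39 for Fst and from -0.24 to 0.21 for Smad7. At 28 against 2 months these were Gdf11, from -0.064 to 0.40, and Tgfb1, from -0.16 to 0.013. At 28 against 20 months they were Acvr2b, from -0.25 to 0.090, and Tgfb2, from -0.20 to 0.016. None of these was a called change. Low read numbers limit Inhba most.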
